A study of Mus musculus with 11 samples.

Results

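Tenomodulin and 9 further genes of tendon and tendon-like matrix were followed across quadriceps libraries of aged mice. They are the tendon regulators and markers Tnmd, Scx and Mkx, the matrix proteins Tnc and Chad, and the 5 thrombospondins Thbs1, Thbs2, Thbs3, Thbs4 and Comp. The genes were taken by name, each symbol matched 1 Ensembl gene of the count table, and the 10 genes stand beside 53465 in the whole table. All 10 passed the filter on low counts. RNA came from the quadriceps, the large thigh muscle, of C57L/6JRj mice (the strain as the labels spell it). In 5 libraries the mice had received DMSO, the solvent, and in 6 libraries myriocin, a fungal inhibitor of serine palmitoyltransferase, which makes the first intermediate of sphingolipids. Treatment started at 18 months of age and ran for 10 weeks in both groups, and both were aged. A younger or untreated group, the dose and the sex are not described in the sources used here. The labels do not state that each library is a separate animal, and p-values here reflect only how far these samples differ among themselves, which may be technical.

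Tendon cells are fibroblasts that lay down parallel collagen fibrils and join the muscle to bone. Scleraxis (Scx) is the basic helix-loop-helix factor of tendon progenitors, Mohawk (Mkx) is a homeobox factor of tendon maturation, and tenomodulin (Tnmd) is a membrane glycoprotein that marks mature tendon cells. Thrombospondins are secreted calcium-binding glycoproteins. Thbs1 and Thbs2 assemble as trimers and limit the growth of blood vessels, while Thbs3, Thbs4 and cartilage oligomeric matrix protein (Comp) assemble as pentamers. Thbs4 is found at the junction of muscle and tendon, and Comp binds collagen in tendon and cartilage. Tenascin-C (Tnc) is a matrix protein of the myotendinous junction and of tissue under load or repair, and chondroadherin (Chad) is a leucine-rich repeat protein of cartilage and tendon.

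The regions upstream of the starts of Tnmd, Thbs4, Tnc and Chad are shown because Tnmd, Thbs4 and Tnc varied together across the libraries, while Chad followed Comp. They were read from RefSeq on GRCm38.p6, which held 6 of the 10 genes (Tnmd, Thbs2, Thbs3, Thbs4, Tnc and Chad). They end before the first annotated transcribed base, and capitals mark E-boxes, CANNTG, the core bound by basic helix-loop-helix factors such as Scx. The Tnmd stretch is chrX:133850758-133850979 on the plus strand, the Thbs4 stretch chr13:92794819-92795068 on the minus strand, the Tnc stretch chr4:64047016-64047265 on the minus strand and the Chad stretch chr11:94564797-94565046 on the plus strand.
Tnmd: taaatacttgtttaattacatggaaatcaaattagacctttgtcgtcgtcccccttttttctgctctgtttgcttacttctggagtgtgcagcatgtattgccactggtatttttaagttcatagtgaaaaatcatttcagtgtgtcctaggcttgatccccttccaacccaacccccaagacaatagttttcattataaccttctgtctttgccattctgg
Thbs4: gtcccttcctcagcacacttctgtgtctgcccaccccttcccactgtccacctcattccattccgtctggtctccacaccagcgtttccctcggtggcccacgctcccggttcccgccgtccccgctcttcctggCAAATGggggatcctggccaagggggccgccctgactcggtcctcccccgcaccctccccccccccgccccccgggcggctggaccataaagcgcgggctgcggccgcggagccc
Tnc: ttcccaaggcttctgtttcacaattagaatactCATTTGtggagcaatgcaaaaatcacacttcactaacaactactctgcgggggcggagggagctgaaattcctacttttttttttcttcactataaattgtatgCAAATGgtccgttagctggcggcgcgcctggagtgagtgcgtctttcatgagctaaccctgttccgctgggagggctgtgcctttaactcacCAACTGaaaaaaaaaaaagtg
Chad: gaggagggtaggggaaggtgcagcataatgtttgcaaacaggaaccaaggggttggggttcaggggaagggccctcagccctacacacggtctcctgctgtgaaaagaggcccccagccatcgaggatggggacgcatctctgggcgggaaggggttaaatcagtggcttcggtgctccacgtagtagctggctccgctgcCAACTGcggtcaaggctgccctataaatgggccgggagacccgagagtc
The Tnmd stretch, 222 bases long where the others have 250, held 0 E-boxes, as did its full window of 250 bases. The stretches of Thbs4 and Chad held 1 each and that of Tnc 3. An E-box occurred in 66.2% of all 32851 RefSeq windows of 250 upstream bases, so its presence sets none of these genes apart. CANNTG reads the same on both strands. A TATAAA motif, searched on both strands, lay in the Tnc stretch and in the Chad stretch, where it began 28 bases before the start, and 12.4% of all windows held one. The letters GCGNGGGCG, a site of the EGR family, were found once in the Tnc stretch and in 4.70% of all windows. CAGAC, a SMAD element, was found in the Thbs4 stretch at 2 places on the opposite strand and in 42.2% of all windows. A match describes the letters only.

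Levels are given as CPM, a gene's reads relative to the gene reads of its library, after TMM scaling, and comparisons between genes as CPM per kilobase of exon. The gene totals were 22241131 to 23163721 reads a library, so that 3 counts, the floor used here, equal 0.123 to 0.138 CPM. Muscle transcripts dominated every library, with Acta1, skeletal actin, at 32530 to 50583 CPM and Myh4, the fastest myosin heavy chain, at 54522 to 75530 CPM. In such bulk RNA fewer cells of a type and less RNA per cell cannot be told apart. DMSO replicate 2 stood apart from the other libraries. It held the summed markers of neutrophils (5 of 5 genes in the table) at 782 CPM, against 0.415 to 113 CPM elsewhere, and those of adipocytes (7 of 7) at 1622 CPM, against 278 to 698 CPM. Its cartilage markers (13 of 13 in the table, Matn1 at 0 in all libraries) summed to 27.9 CPM, against 9.68 to 16.4 CPM. Liver markers (6 of 6) summed to 112.7, 96.5 and 122.0 CPM in DMSO replicates 4 and 5 and Myriocin replicate 4, against 5.28 to 27.0 CPM in the others.

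Per kilobase of exon, Thbs4 was the highest of the genes at 33.4 ± 9.98 (SD, n = 11), followed by Chad at 10.48 ± 7.52, Comp at 8.01 ± 5.31 and Tnmd at 5.16 ± 2.07. Thbs4 lay above Chad in 11 of 11 libraries and Chad above Comp in 10 of 11, while Comp lay above Tnmd in 8 of 11 and the ranges of those neighbours overlapped. Next came Thbs1 at 3.46 ± 1.37, Scx at 2.62 ± 0.602 and Thbs2 at 2.59 ± 0.751, which changed places from library to library. Thbs3 at 1.24 ± 0.198 and Tnc at 1.17 ± 0.431 could not be ranked, Thbs3 being the higher in 6 of 11 libraries. Thbs2 lay above Thbs3, and Tnc above Mkx at 0.178 ± 0.0588, without overlap of their ranges. The marker of differentiated tendon cells was thus present at several CPM in every quadriceps library, and Mkx was the least abundant of the genes.

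**Figure D1:**
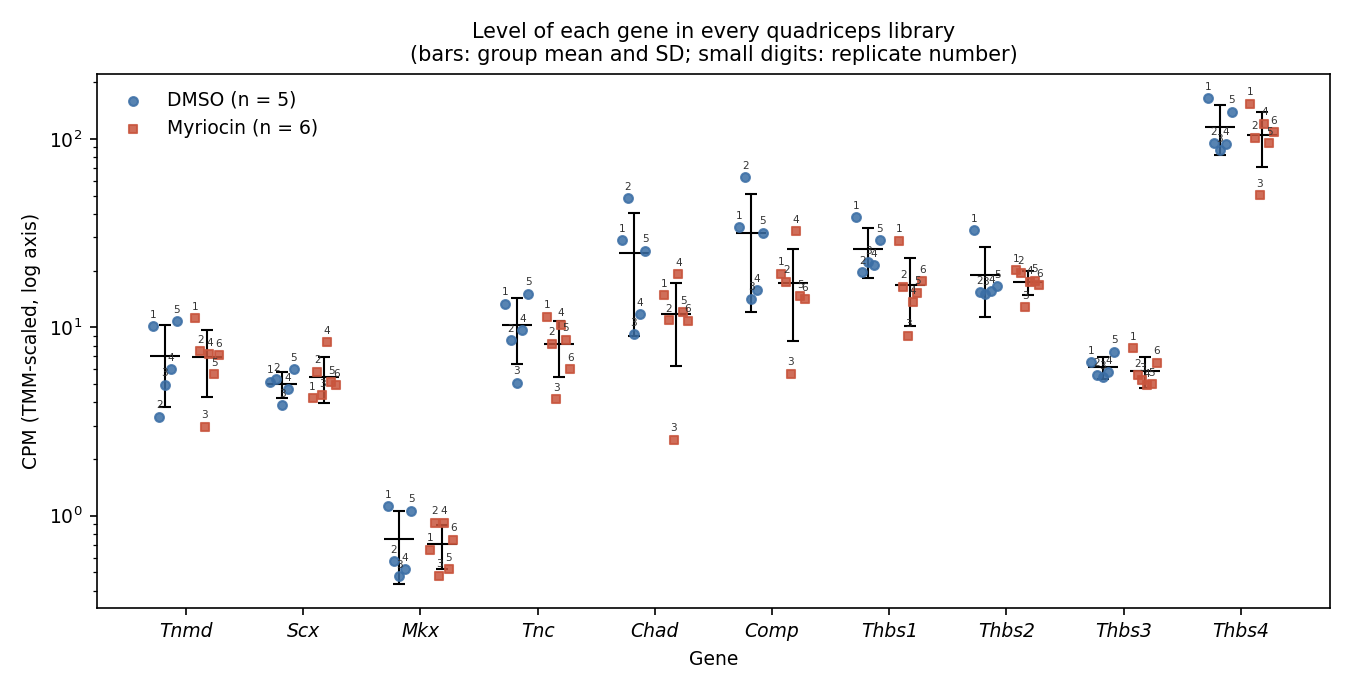
CPM of each gene (log axis) in the 5 DMSO libraries (blue circles) and 6 myriocin libraries (red squares), with replicate numbers and bars for group mean and SD. The groups overlap for each of the 10 genes, and Myriocin replicate 3 is the lowest library for 7 of them.

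Tnmd (ENSMUSG00000031250, GRCm38 chromosome X, 133850980 to 133865577, plus strand) had the same mean level in both groups within its spread. In DMSO replicates 1 to 5 it stood at 10.1, 3.36, 4.95, 6.02 and 10.8 CPM, and in the myriocin libraries at a lowest of 2.97, a median of 7.16 and a highest of 11.2 CPM. The highest and the lowest library of the series were both myriocin libraries. The means were 7.05 ± 3.26 CPM (SD, n = 5) and 6.94 ± 2.68 CPM (SD, n = 6). The log2 fold change (myriocin minus DMSO) came to -0.02, with an SE of 0.35 and a 95% interval from -0.79 to 0.76 (edgeR, adjusted p = 0.997). The interval leaves room for a difference of more than 0.5 log2 units in either direction, and the sign turned without DMSO replicate 1 (0.15), DMSO replicate 5 (0.18), Myriocin replicate 3 (0.14) or Myriocin replicate 5 (0.0338).

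The tendon transcription factors also overlapped between the groups. Scx (ENSMUSG00000034161, chromosome 15, 76457452 to 76459458, plus strand) ranged from 3.86 to 6.00 CPM with DMSO and from 4.19 to 8.31 CPM with myriocin (log2 fold change 0.12, SE 0.17; edgeR, adjusted p = 0.950), and was the only member with a positive value. The highest value was that of Myriocin replicate 4, and without it the fold change was -0.03. Scx lies inside the span of Bop1, a ribosome biogenesis gene on the opposite strand at 26.9 to 36.9 CPM, and shares 0 exon bases with it. No source used here gives the strand setting of the counting, and reads of unspliced Bop1 RNA in Scx cannot be told apart from Scx reads. Mkx (ENSMUSG00000061013, chromosome 18, 6934518 to 7004780, minus strand) stood at 0.477 to 1.12 CPM with DMSO and 0.480 to 0.919 CPM with myriocin (-0.08, SE 0.29; edgeR, adjusted p = 0.982). Its counts were 11 to 26 reads a library, so that counting error alone is large.

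Comp and Chad varied most of the 10 genes. Comp (ENSMUSG00000031849, chromosome 8, 70373558 to 70382066, plus strand) stood at 33.8, 62.7, 14.2, 15.7 and 31.7 CPM in DMSO replicates 1 to 5, and with myriocin at a lowest of 5.67, a median of 16.0 and a highest of 32.2 CPM. DMSO replicate 2 was the highest library and Myriocin replicate 3 the lowest, an 11.1-fold span, and 5 of 6 myriocin libraries lay below the DMSO mean. Group means were 31.6 ± 19.6 CPM (SD, n = 5) and 17.2 ± 8.72 CPM (SD, n = 6), a log2 fold change of -0.88 (SE 0.48, 95% interval from -1.95 to 0.19; edgeR, adjusted p = 0.936). The groups did not differ beyond that error. Chad (ENSMUSG00000039084, chromosome 11, 94565047 to 94569127, plus strand) showed the same library order at its ends. It stood at 28.9, 48.3, 9.16, 11.8 and 25.5 CPM in DMSO replicates 1 to 5, and with myriocin at a lowest of 2.53, a median of 11.5 and a highest of 19.1 CPM, a 19.1-fold span. The DMSO mean of 24.7 ± 15.7 CPM (SD, n = 5) exceeded the value of each of the 6 myriocin libraries, whose mean was 11.7 ± 5.47 CPM (SD, n = 6), yet the groups overlapped. The log2 fold change was -1.08 (SE 0.52, 95% interval from -2.24 to 0.08; edgeR, adjusted p = 0.936).

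Without DMSO replicate 2 the fold changes were -0.47 for Comp and -0.69 for Chad, so that much of their size came with that library. It also carried the cartilage transcripts, with aggrecan (Acan) at 3.76 CPM, while the others held 0 to 1.13 CPM, and type II collagen (Col2a1) at 9.62 CPM against 0.218 to 2.09 CPM. The part of cartilage in the Comp and Chad values was not tested. The summed cartilage markers ran from 9.68 to 27.9 CPM with DMSO and from 9.97 to 16.4 CPM with myriocin. Chad spanned 2.53 to 28.9 CPM without DMSO replicate 2. Chad lies inside the span of Acsf2, an acyl-CoA synthetase family gene on the opposite strand with which it shares 0 exon bases. Acsf2 was also highest in DMSO replicate 2, at 8.68 CPM, and lowest in Myriocin replicate 3, at 2.92 CPM, and reads of the pair cannot be assigned with certainty.

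Tnc (ENSMUSG00000028364, chromosome 4, 63959785 to 64047015, minus strand) stood at 13.4, 8.51, 5.08, 9.65 and 15.04 CPM in DMSO replicates 1 to 5. With myriocin its lowest value was 4.14, its median 8.40 and its highest 11.4 CPM. The upper end of the DMSO group exceeded every myriocin library, while the lower end lay within that group. The log2 fold change was -0.35 (SE 0.30; edgeR, adjusted p = 0.936).

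Among the trimeric thrombospondins, Thbs1 was the member with the smallest p. Thbs1 (ENSMUSG00000040152, chromosome 2, 118111876 to 118127133, plus strand), which also activates latent TGF-beta and is stored in platelets, stood at 38.3, 19.6, 22.1, 21.4 and 28.9 CPM in DMSO replicates 1 to 5. With myriocin its lowest value was 9.03, its median 15.8 and its highest 28.8 CPM. In 5 of 6 myriocin libraries it was lower than in each DMSO library, and Myriocin replicate 1 was the exception. The means were 26.04 ± 7.71 CPM (SD, n = 5) and 16.8 ± 6.604 CPM (SD, n = 6), with a log2 fold change of -0.63 (SE 0.27, 95% interval from -1.23 to -0.04). The unadjusted p was 0.0393 and the adjusted p 0.936 in edgeR, so that Thbs1 did not pass over all genes. Of the 14117 genes tested, 4.68% had an unadjusted p under 0.05, 2.34% being lower and 2.33% higher with myriocin, and of the 10 members 1 was lower and 0 were higher at that level. Pf4, a platelet chemokine, stood at 4.50 to 8.92 CPM. The summed platelet markers (7 of 7 genes in the table) ran from 9.60 to 38.6 CPM with DMSO and from 9.75 to 19.4 CPM with myriocin, and their part in the Thbs1 values was not tested. Their highest value lay in DMSO replicate 2, which also had the highest neutrophil and adipocyte sums.

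Thbs2 (ENSMUSG00000023885, chromosome 17, 14665500 to 14694235, minus strand) was even across most libraries. It stood at 32.7, 15.4, 15.1, 15.5 and 16.5 CPM in DMSO replicates 1 to 5 and between 12.8 and 20.1 CPM with myriocin, with a median of 17.5 CPM. DMSO replicate 1 was the single library above 20.1 CPM. The log2 fold change was -0.13 (SE 0.21; edgeR, adjusted p = 0.953), and without DMSO replicate 1 it was 0.15.

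Of the pentameric thrombospondins other than Comp, Thbs4 was abundant and variable and Thbs3 low and steady. Thbs4 (ENSMUSG00000021702, chromosome 13, 92751590 to 92794818, minus strand) stood at 164.9, 95.1, 86.9, 94.2 and 139.4 CPM in DMSO replicates 1 to 5. With myriocin its lowest value was 50.3, its median 104.8 and its highest 153.6 CPM. The groups overlapped, with means of 116.1 ± 34.3 CPM (SD, n = 5) and 104.7 ± 33.8 CPM (SD, n = 6) and a log2 fold change of -0.15 (SE 0.26; edgeR, adjusted p = 0.960). Thbs3 (ENSMUSG00000028047, chromosome 3, 89215180 to 89226837, plus strand) stayed between 4.91 and 7.76 CPM in the 11 libraries, a 1.58-fold span, with a log2 fold change of -0.08 (SE 0.13; edgeR, adjusted p = 0.959). Thbs3 shares 318 exon bases with Mtx1, a mitochondrial import gene on the opposite strand at 8.34 to 10.98 CPM, so its count is uncertain. Thbs1, Tnc and Mkx each overlap the exons of a noncoding transcript by 208, 176 and 201 bases. The partners of Thbs1 and Tnc lie on the opposite strand and have rows in the count table. That of Mkx lies on the same strand and has no row there.

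Over the 10 members, 9 log2 fold changes were negative, with a median of -0.14. Over all genes tested 53.7% were negative and the median was -0.01. The members are not independent of each other, since they varied together as described below. Past the adjusted threshold of 0.05 there were 0 of 10 members and 0.00% of all genes in edgeR, 0 of the members in DESeq2 and 0 in limma-voom. The groups did not overlap for 0.361% of all genes and for 0 members. An absolute log2 fold change of at least 0.5 was seen in 3 members (Chad, Comp and Thbs1) and in 2.95% of all genes.

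**Figure D2:**
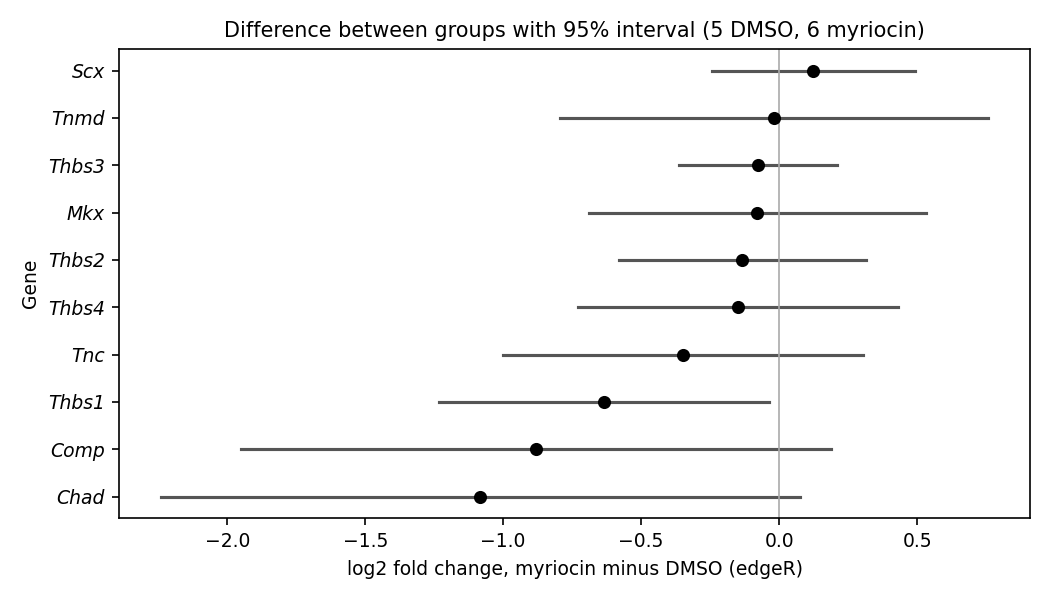
Log2 fold change (myriocin minus DMSO, edgeR) of each gene as a point, with its 95% interval as a line. The interval of Thbs1, from -1.23 to -0.04, does not include 0, and those of the other 9 genes do.

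The spread between libraries was larger than the difference between groups for most members, and it was shared. By the SD of log2 CPM over the 11 libraries, Chad (1.09), Comp (0.91) and Tnmd (0.63) were among the most variable genes of the tissue, 0.609%, 1.07% and 3.76% of the tested genes having a larger SD. Tnc, Thbs1 and Thbs4 followed, with 5.43%, 5.08% and 10.1% of genes above them, while 43.6% of genes lay above Thbs3. DMSO replicate 1 was among the 3 highest libraries for 9 of 10 members, DMSO replicate 5 for 8 and Myriocin replicate 1 for 6. Myriocin replicate 3 was the lowest for 7 members.

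Of the 45 pairs of members, 43 had a positive Pearson correlation of log2 CPM over the 11 libraries, with a median r of 0.64. A value of at least 0.7 was reached by 11 pairs, which is 24.4%, against 2.36% of all pairs of tested genes. The permutation test (100000 resamples, 2-sided, adjusted over the 45 pairs) called 16 pairs by Pearson's r and 10 of those also by Spearman's rho. The libraries share their scaling, and both groups enter each correlation. On the deviations from the mean of each group 10 of the 16 were called. The number called also depended on single libraries, from 2 without Myriocin replicate 3 to 21 without DMSO replicate 2, and the pairs Tnmd with Thbs4 and Comp with Chad were called under each of the 16 alternatives tried.

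**Figure D3:**
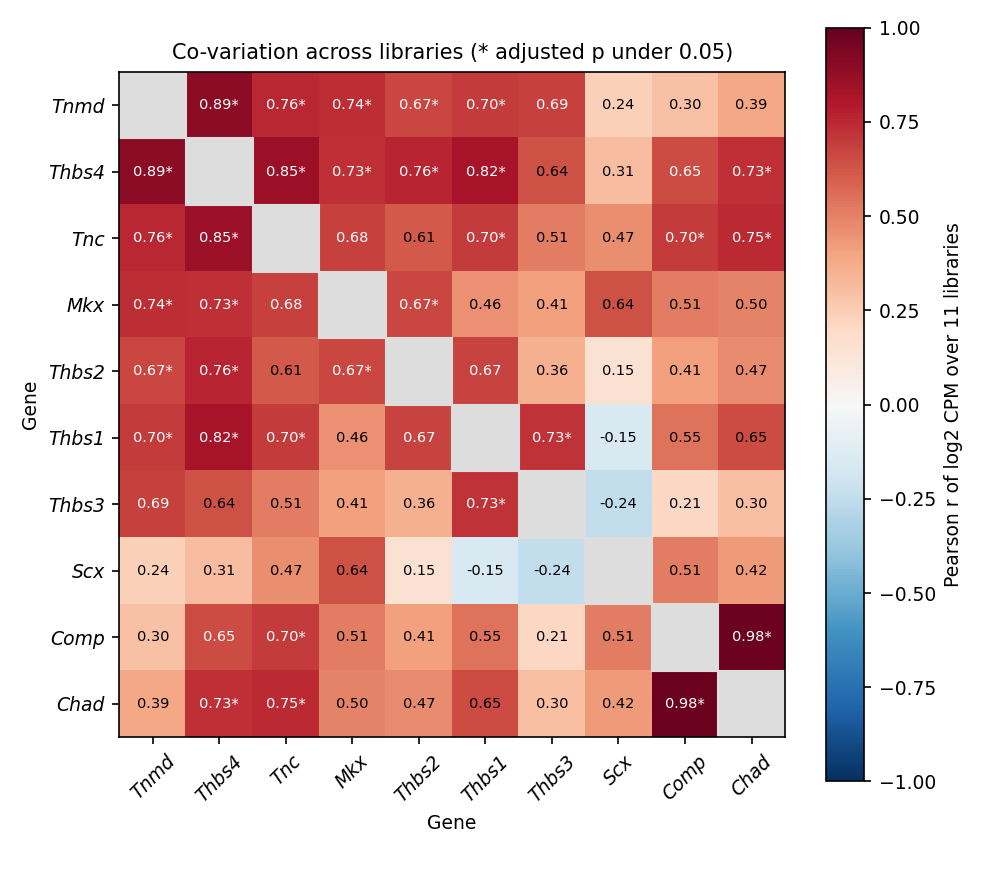
Pearson r of log2 CPM over 11 libraries for each pair of genes (colour and number), a star marking an adjusted permutation p under 0.05. Tnmd, Thbs4 and Tnc form a block of high values, Comp and Chad form a pair at 0.98, and Scx has the lowest values, down to -0.24 with Thbs3. Tnc with Chad (0.75), Thbs4 with Chad (0.73) and Comp with Tnc (0.70) are also starred, so the block and the pair are not separate.

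Tnmd and Thbs4 gave r = 0.89 (rho 0.88; permutation p = 8e-05 and 6.9e-04, adjusted 0.0018 and 0.0133, n = 11). Without DMSO replicate 2 and Myriocin replicate 3, the libraries farthest from the median of Tnmd, r was 0.94. On the deviations from the group means it was 0.91 (adjusted p = 0.0129). Thbs4 and Tnc gave r = 0.85 (rho 0.79; permutation p = 3.3e-04 and 0.00547, adjusted 0.00495 and 0.0346), with 0.71 without DMSO replicate 1 and Myriocin replicate 3. Without Myriocin replicate 3 alone the adjusted p of that pair was 0.0998. Tnmd and Tnc gave r = 0.76 (rho 0.77; permutation p = 0.00717 and 0.0077, adjusted 0.0426 and 0.0346) and 0.78 without its farthest libraries. That call was lost in 10 of 16 alternatives, among them without Myriocin replicate 3 (r = 0.63, adjusted p = 0.187), and held on the deviations from the group means (r = 0.80, adjusted p = 0.0425).

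Comp and Chad gave r = 0.98 (rho 0.95; permutation p = 2e-05 and 6e-05, adjusted 9e-04 and 0.0027, n = 11), and 0.95 without DMSO replicate 2 and Myriocin replicate 3. On the deviations from the group means r was 0.97 (adjusted p = 0.00495). Of 14116 other genes, Chad had the highest r with Comp. An r of at least 0.7 with Comp was reached by 3.24% of them and by 1 of the 9 other members, Chad. By Pearson's r, Comp with Tnc (r = 0.70), Tnc with Chad (0.75) and Thbs4 with Chad (0.73) were also called (permutation test, adjusted p = 0.048, 0.0426 and 0.048). Of these only Tnc with Chad was called by rho. The calls were lost in 13, 11 and 13 of 16 alternatives. The ratio of Comp to Chad in CPM had a median of 1.30 and stayed between 1.17 and 2.24, whereas Comp itself spanned 11.1-fold. The genes lie on different chromosomes.

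Comp and Tnmd, both tendon genes, did not show this. Their r was 0.30 (rho 0.43; permutation p = 0.383 and 0.195, adjusted 0.430 and 0.265), and it rested on single libraries. Without DMSO replicate 2 it was 0.85 (adjusted p = 0.0105), and without Myriocin replicate 3 it was -0.13 (adjusted p = 0.778). Tnmd and Chad behaved alike, with r = 0.39 over all libraries (rho 0.41; permutation p = 0.247 and 0.218), 0.89 without DMSO replicate 2 and -0.08 without Myriocin replicate 3. In DMSO replicate 2 Tnmd was the lowest of its group at 3.36 CPM while Comp and Chad were the highest of the series.

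**Figure D4:**
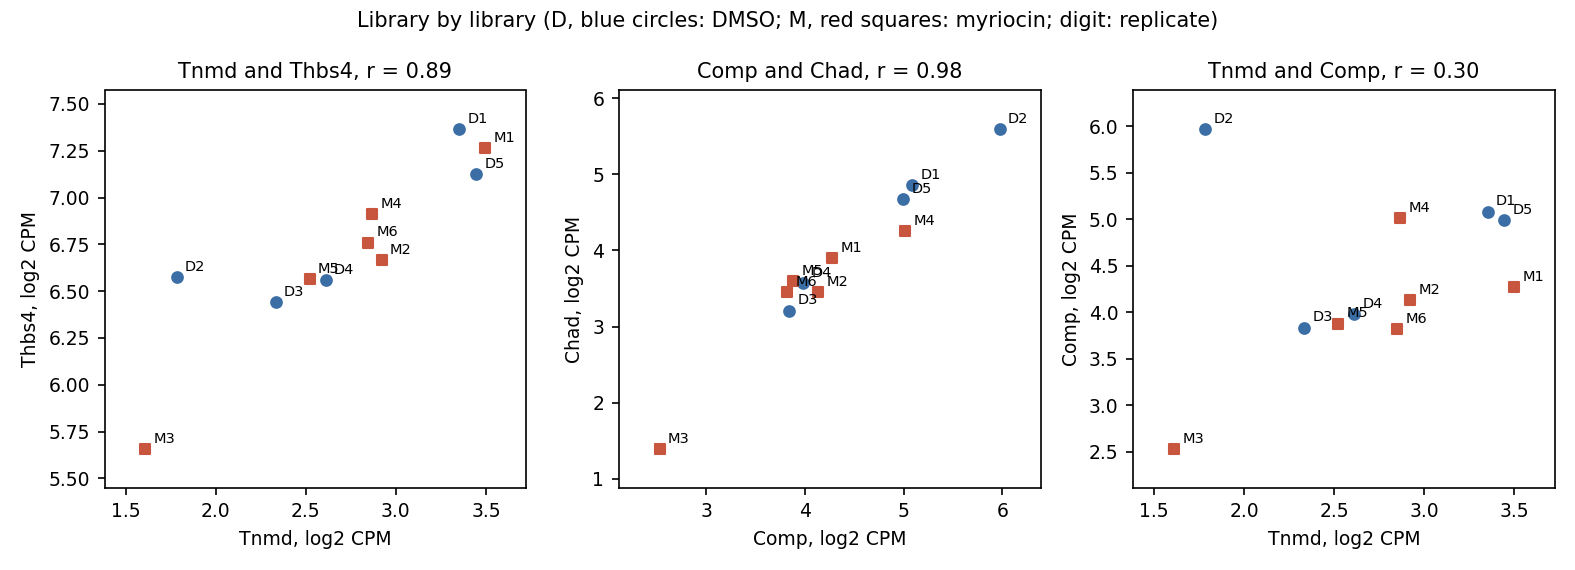
Log2 CPM of Tnmd against Thbs4, Comp against Chad, and Tnmd against Comp, each point being 1 library (D for DMSO in blue, M for myriocin in red, with the replicate number). The r values are 0.89, 0.98 and 0.30, and D2 lies away from the other libraries in the third panel.

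Thbs1 varied with Thbs4 (r = 0.82, rho 0.55; permutation p = 0.00246 and 0.0887, adjusted 0.0277 and 0.154) and with Thbs3 (r = 0.73, rho 0.82; permutation p = 0.0111 and 0.00323, adjusted 0.048 and 0.0346). Without DMSO replicate 1 and Myriocin replicate 3 the first was 0.49 and the second 0.85. On the deviations from the group means they were 0.90 and 0.77 (adjusted p = 0.0129 and 0.0496). The call of Thbs1 with Thbs4 was lost in 4 of 16 alternatives, without DMSO replicate 1, DMSO replicate 5, Myriocin replicate 1 or Myriocin replicate 3, and that of Thbs1 with Thbs3 in 12 of 16. Thbs2 and Thbs4 gave r = 0.76 (rho 0.78; permutation p = 0.0161 and 0.00644, adjusted 0.048 and 0.0346) and 0.57 without that pair of libraries, and its call was lost in 12 of 16 alternatives. The trimeric pair Thbs1 and Thbs2 gave 0.67 (rho 0.29; permutation p = 0.0263 and 0.386, adjusted 0.0624 and 0.413) and -0.05 without them, but 0.77 on the deviations from the group means (adjusted p = 0.0129). Mkx varied with Tnmd (r = 0.74, rho 0.77; permutation p = 0.0102 and 0.00737, adjusted 0.048 and 0.0346; 0.73 without the 2 farthest libraries). That call was lost in 12 of 16 alternatives, among them the deviations from the group means (r = 0.74, adjusted p = 0.0681) and leaving out Myriocin replicate 3 (r = 0.69, adjusted p = 0.131). Scx, the regulator placed before Tnmd in tendon development, had r = 0.24 with Tnmd (rho 0.31; permutation p = 0.479 and 0.356, adjusted 0.513 and 0.401) and 0 of its 9 pairs were called by either measure.

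Outside the members, 5 of the 10 genes nearest to Tnmd belonged to the tendon and ligament matrix list drawn up for this work. That list held 17 of the 14117 genes tested. It was chosen with earlier results of these data known, so the overlap is no independent evidence. Over the 11 libraries 1.47% of 14116 genes had an r with Tnmd of at least 0.7, and 3 of the 9 other members did, with Thbs4 ranked 8 of all genes, Tnc 102 and Mkx 139. The 10 nearest genes outside the members, with a mean of at least 1 CPM, were Serpinf1, an inhibitor of vessel growth (r = 0.96), the cornea and tendon proteoglycan keratocan, Kera (0.96), the microfibril protein Mfap4 (0.94), the fibril-associated collagen Col12a1 (0.92), asporin, Aspn (0.91), Fam171a2 (0.90), the fibril collagen Col11a1 (0.90), fibromodulin, Fmod (0.89), the fast myosin heavy chain Myh1 (0.89) and the type I collagen chain Col1a2 (0.89). The 5 in the list are Kera, Col12a1, Aspn, Col11a1 and Fmod. Fibromodulin, a small proteoglycan that shapes collagen fibrils, had a log2 fold change of -0.35 (SE 0.36). These r values describe the nearest of many genes and carry no test.

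Tnmd was then set against the summed CPM of 19 marker lists, members left out. It followed the tendon and ligament matrix list (r = 0.86, rho 0.91; permutation p = 9.8e-04 and 3e-04, adjusted p 0.0186 for r) and the list of fibro-adipogenic progenitors, the fibroblasts between muscle fibres (r = 0.80, rho 0.78; permutation p = 0.00353 and 0.0071, adjusted p 0.0335 for r). Without DMSO replicate 2 and Myriocin replicate 3 these were 0.96 and 0.81. The tendon sum is weighted to Fmod and Cilp, which averaged 181 and 82.2 CPM with DMSO, where the sum ran from 353.1 to 624.6 CPM. Fmod is also among the genes nearest to Tnmd, and the list was chosen with earlier results known. This r is therefore no independent evidence for the list as a whole. The progenitor sum is weighted to matrix genes. Dcn, Col1a2, Col3a1 and Col1a1 averaged 406, 201, 180 and 157 CPM with DMSO, and the rest of that list 5.67 to 56.9 CPM. Col1a2 is also among the genes nearest to Tnmd, so this r does not single out progenitor cells. The list of the myotendinous junction gave 0.08 (rho 0.15; permutation p = 0.8096 and 0.653, adjusted p 0.917). The junction sum is weighted to Itgb1, Tln1, Pxn and Itga7, which averaged 189, 160, 137 and 114 CPM with DMSO. Col22a1, a gene of the fibre tip, averaged 22.5 CPM, so this r says little about it. For Comp, added after its values were seen, 0 of 19 lists were called, and r was 0.67 with tendon and ligament matrix, 0.64 with cartilage, 0.67 with bone and 0.65 with adipocytes (permutation p = 0.0227, 0.0404, 0.0257 and 0.0397, each 0.192 after adjustment). Their rho values were 0.65, 0.42, 0.57 and 0.56. Without the 2 farthest libraries the r with cartilage was 0.46, with bone 0.26 and with adipocytes 0.06, while that with tendon matrix was 0.74. Alpl alone averaged 11.6 CPM with DMSO, where the bone sum ran from 12.4 to 22.2 CPM. Col11a2 averaged 7.85 CPM with DMSO, where the cartilage sum ran from 9.68 to 27.9 CPM. The number of lists called for Tnmd ran from 0 to 4 when single libraries were left out, and both calls were lost without DMSO replicate 1, DMSO replicate 5 or Myriocin replicate 1. The call for progenitors was lost in 9 of 16 alternatives, among them the deviations from group means, and that for tendon matrix in 4 of 16.

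**Figure D5:**
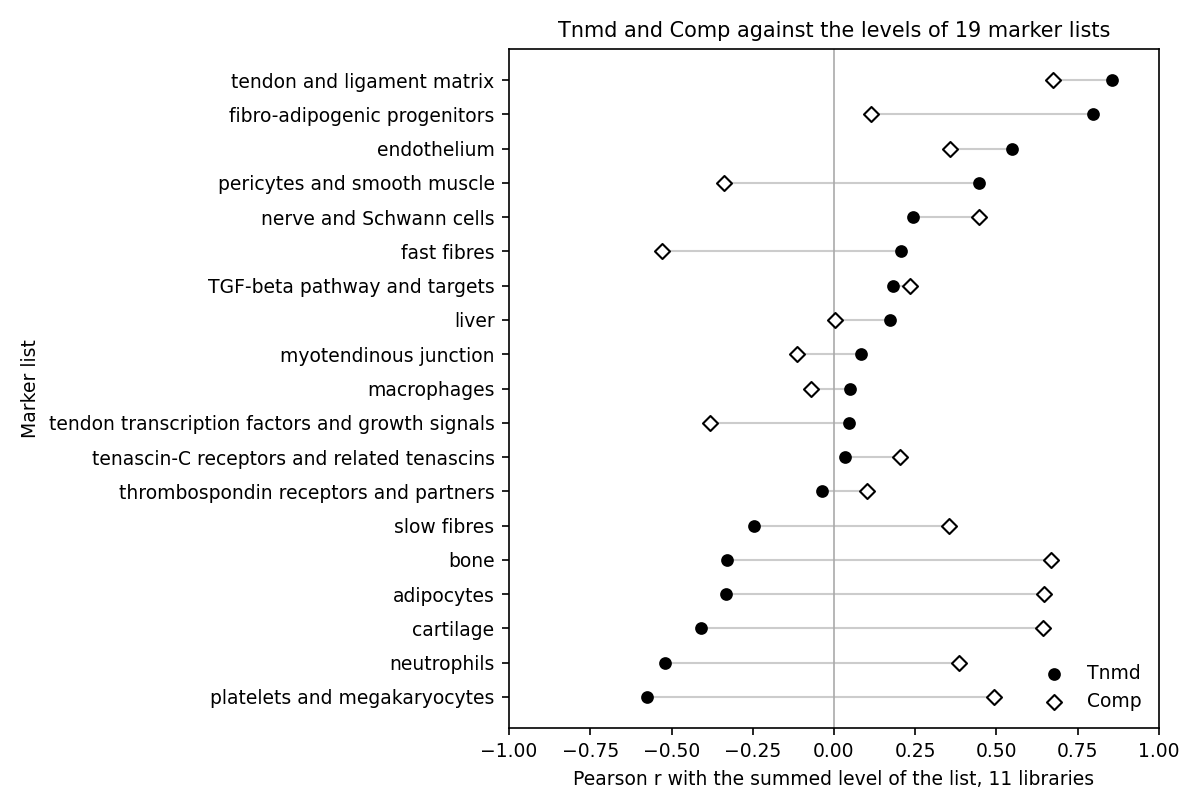
Pearson r of Tnmd (filled circles) and Comp (open diamonds) with the summed level of each of 19 marker lists over 11 libraries. Tnmd is highest with tendon matrix (0.86) and the progenitor list (0.80). Comp also has r above 0.6 with cartilage, bone and adipocytes, where Tnmd lies at -0.41, -0.33 and -0.33. None of these values of Comp or Tnmd with cartilage, bone and adipocytes was called. Without DMSO replicate 2 and Myriocin replicate 3, Comp lies at 0.46, 0.26 and 0.06 and Tnmd at -0.02, -0.38 and -0.20.

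The wider pathway was described by lists, whose members, like the genes above, did not pass the test over all genes. For comparison with the counts of each list, 53.7% of all genes tested were negative and 4.68% had an unadjusted p under 0.05 in edgeR. Tendon and ligament matrix had 17 of 18 genes tested, 4 higher and 13 lower with myriocin, with a median log2 fold change of -0.15 and 1 gene at an unadjusted p under 0.05. That gene was Clec3b, tetranectin, at 29.3 ± 3.32 CPM with DMSO and 23.6 ± 1.92 CPM with myriocin (log2 fold change -0.31, SE 0.08). The next was Cpxm2, a carboxypeptidase-like protein (-0.24, SE 0.14), and the adjusted p in edgeR came to 0.936 for each. Summed, the list ran from 353.1 to 624.6 CPM with DMSO and from 260 to 576 CPM with myriocin. Factors and growth signals of tendon had 7 of 12 genes tested, 2 positive and 5 negative with a median of -0.03, led by the cofactor Eya2 (-0.42, SE 0.20) and the early growth response factor Egr1 (-0.31, SE 0.26). The myotendinous junction had 11 of 11 tested, 4 positive and 7 negative, with a median of -0.02, led by the protease Adamts8 (-0.71, SE 0.32) and the focal adhesion protein vinculin, Vcl (0.22, SE 0.22).

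Receptors and partners of thrombospondins had 18 of 18 genes tested, 6 positive and 12 negative with a median of -0.09. Adamts12, a protease that cleaves Comp, stood at 3.20 ± 0.565 CPM with DMSO and 4.76 ± 1.54 CPM with myriocin (log2 fold change 0.57, SE 0.22), and Stab2, a scavenger receptor, at 26.9 ± 4.95 and 22.5 ± 1.53 CPM (-0.26, SE 0.10), both with an unadjusted p under 0.05 and an adjusted p of 0.936 in edgeR. Receptors of tenascin-C and related tenascins had 7 of 9 tested, 2 positive and 5 negative with a median of -0.08, led by annexin A2, Anxa2 (-0.24, SE 0.12), and tenascin-X, Tnxb (-0.13, SE 0.12). The TGF-beta list, whose signal induces several matrix genes, had 14 of 14 tested, 7 positive and 7 negative with a median of -0.01. Its members with the smallest p were the ligand Tgfb3 (46.4 ± 4.602 and 40.1 ± 3.801 CPM; -0.21, SE 0.08) and the matricellular protein Ccn1 (44.0 ± 11.3 and 32.4 ± 6.69 CPM; -0.44, SE 0.18). Both had an unadjusted p under 0.05 and an adjusted p of 0.936 in edgeR. That unadjusted level was reached by 2 of 18 thrombospondin partners, 2 of 14 TGF-beta genes and 4.68% of all genes tested. Of the tested genes of other lists, 1 of 17 in tendon matrix, 1 of 11 in the junction and 3 of 11 in progenitors reached it. So did 2 of 3 bone, 1 of 6 endothelial and 1 of 6 fast fibre genes, and no gene of the remaining lists.

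Of the lists for other cells, fibro-adipogenic progenitors had 6 positive and 5 negative members (median 0.04, summed 999 to 1485 CPM with DMSO and 978 to 1861 CPM with myriocin), and endothelium 0 positive and 6 negative (median -0.12). Pericytes and smooth muscle had 1 positive and 5 negative (-0.13), macrophages 2 and 3 (-0.01), nerve and Schwann cells 1 and 4 (-0.08), adipocytes 1 and 6 (-0.39), platelets and megakaryocytes 0 and 4 (-0.40), neutrophils 0 and 3 (-2.41) and liver 0 and 5 (-0.57). Cartilage had 1 and 1 (0.00), bone 2 and 1 (0.75), slow fibres 1 and 5 (-0.16) and fast fibres 4 and 2 (0.13). The bone list had 3 of 9 genes tested, neutrophils 3 of 5, platelets and megakaryocytes 4 of 7, pericytes and smooth muscle 6 of 7 and liver 5 of 6. Cartilage had 2 of 13 tested, Col11a2 and Sox9, so its median leaves out Acan and Col2a1. The summed neutrophil, adipocyte and platelet markers were highest in DMSO replicate 2.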

How the data were processed

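RNA was isolated from quadriceps with a Direct-zol kit and sequenced by DNBseq, per the labels' protocols. The authors deposited raw counts per Ensembl gene, the submitters' processing notes naming STAR 2.5.2b, HTSeq 0.6.0 and GRCm38. Annotation release, strand setting and overlap mode: not given in the sources used here. HTSeq summary lines (5 lines, 24.8% to 28.2% of reads) stayed out of library sizes and tests. Symbols, coordinates and exon lengths came from GENCODE M21, which matched 53360 of 53465 genes. Columns were matched to samples by name, with 0 left over. No library was a copy of another (chi-square per degree of freedom 8.18 to 44.2 within groups).

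Counts were filtered with filterByExpr (minimum count 10, total 15), scaled by TMM and tested over 14117 genes with edgeR 4.0.16 (R 4.3.3; quasi-likelihood F test, robust, Benjamini-Hochberg, threshold 0.05). The SE was taken from the fold change and its F statistic (size over root F), and the 95% interval from the fitted degrees of freedom. Intervals and floors (3 counts) cover counting error and the fitted spread only, and reads may include PCR copies. Log2 CPM for correlations used a prior count of 2. Permutation tests ran in Python 3.11.15 with 100000 resamples, or all permutations under 10 libraries, within groups for deviations from group means. The tests were checked on simulated data. DESeq2 1.42.0 and limma 3.58.1 were alternatives. The genes, lists, named gene rule and alternatives were chosen with earlier results of these data known. Named genes were the 10 members, the 2 genes with the smallest p of each list described by its genes, and the 10 genes nearest to Tnmd (mean of at least 1 CPM, no predicted genes). Other genes were named after their values were seen.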

Additional observations from a re-analysis of the deposited data

Results flagged for a closer look

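Thbs2 in DMSO replicate 1, at 32.7 CPM, lay far from the other 4 DMSO libraries, which held 15.1 to 16.5 CPM, the gap being 0.92 of the range of the group against a critical value of 0.71 for Dixon's test. It was the single such value in 20 tests of the 10 members in 2 groups, and chance gives about 1 in 20. DMSO replicate 1 was also the highest library for Thbs1, Thbs4 and Mkx. Without it the log2 fold change of Thbs2 was 0.15 in place of -0.13.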

How the results depend on the processing

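The number of genes past the adjusted threshold was 0 in edgeR under each scaling, filter and left-out library, 0 in limma-voom and 3 in DESeq2, with 660, 643 and 756 genes at an unadjusted p under 0.05 and 1449 in edgeR without Myriocin replicate 4. No member passed under any alternative. Comp, Chad, Thbs1 and Tnc stayed negative under all 21 alternatives, from -1.38 to -0.47, -1.49 to -0.69, -0.86 to -0.45 and -0.52 to -0.18. Tnmd turned positive with limma-voom (0.0179) and without the 3 libraries with liver transcripts (0.17), and Thbs3 in the latter (0.0420). With single libraries left out, Tnmd ran from -0.21 to 0.18, Scx from -0.0345 to 0.19, Mkx from -0.20 to 0.12, Thbs2 from -0.21 to 0.15 and Thbs4 from -0.29 to 0.0112; the cause was not tested.

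The 16 called pairs became 5 without scaling and 6 without the 3 libraries with liver transcripts, and 2 to 21 with single libraries left out. The r of Tnmd with Comp then ran from -0.13 to 0.85 and with Chad from -0.0823 to 0.89. The 2 lists called for Tnmd became 1 without scaling, 1 on group deviations, 1 without the liver libraries, and 0 to 4 with single libraries left out. Fewer libraries also weaken the permutation test.

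Replicate numbers did not pair the libraries: same-numbered libraries correlated at -0.13 to 0.09 in their deviations, and none matched its own number best. With the replicate block over 10 libraries 0 genes passed, and 509 against 558 unpaired had an unadjusted p under 0.05 (the unpaired fit was added after seeing the data). Members with counts near those of Mkx, and libraries of this number, limit what could be detected.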

Other observations

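The genes whose levels most resembled those of Comp, chosen after its values were seen, were other than those nearest to Tnmd. After Chad, the 5 nearest genes with a mean of at least 1 CPM outside the members were Rab34, a small GTPase of the Golgi and cilium (r = 0.95), prostacyclin synthase, Ptgis (0.94), Bri3 (0.92), Aspscr1, a tether of glucose transporter vesicles (0.92), and the tetraspanin Cd9 (0.91), over 11 libraries. Without the 2 libraries farthest from the median of Comp these were 0.86, 0.92, 0.93, 0.74 and 0.77. An r of at least 0.7 with Comp was reached by 3.24% of 14116 genes. The values are descriptions with no test.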
